A study of Homo sapiens with 6 samples.

Results

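Topologically associated domains (TADs) of 1.5 Mb or more were examined in LNCaP, an established prostate cancer cell line. Cells given control siRNA were compared with cells given siRNA against the architectural protein CTCF. Members were chosen by their length in the TAD list of the control cells: every autosomal TAD whose end minus start reached 1.5 Mb was taken. This rule selected 373 of the 2763 autosomal control TADs (13.5%), out of 2864 in the whole list. They covered 786.8 Mb, or 31.5% of the length of all autosomal control TADs. Their median length was 1920 kb (95% interval 1880 to 2000 kb) and the longest reached 5720 kb. Only 36 of them were 3 Mb or longer.

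The study used Hi-C, which cuts and religates cross-linked DNA so that a sequenced read pair records a contact between 2 places in the genome. Control cells received 20 nM of a pooled non-targeting siRNA and the others 20 nM of a pooled CTCF siRNA, with a second transfection midway and collection at 144 h. The labels list 2 control siRNA libraries, replicates 1 and 2, and 4 CTCF siRNA libraries, replicates 1, 2, 1.1 and 2.1. They do not say whether the last pair came from separate cultures or from further sequencing of the others. The authors pooled the libraries of a condition into 1 contact map of 40 kb bins and 1 TAD list. The level of CTCF itself was not measured in these files. With no map of a single replicate in the files, no p-value is given, and each 95% interval below covers counting error or the spread over TADs only.

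A TAD is a stretch of chromosome whose parts contact each other more often than they contact the sequence outside. Cohesin extrudes chromatin loops until it meets CTCF bound in the blocking orientation, so that many TAD edges carry CTCF sites. Long TADs are usually found in gene-poor, AT-rich chromatin, often around a single very long neuronal gene or a developmental regulator with distant enhancers. Insulation is the shortage of contacts across a position, and it is strongest at TAD edges.

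The CTCF siRNA pool is what separates the 2 groups, and its members are printed as the labels give them, 5′ to 3′, in lower case.
CTCF siRNA 1: gaugaagacugaaguaaug
CTCF siRNA 2: ggagaaagaagaagagua
CTCF siRNA 3: gaagaugccugccacuuac
CTCF siRNA 4: gaacagcccauaaacauag
The core of the CTCF motif was searched as CCANNAGGGGGC on both strands of hg19. The matches nearest to the edges of 3 long TADs that differ in what became of them are printed below with 9 bases on either side, read along the strand of the match, with the match in capitals. The first lies at the end of the longest TAD that was kept, the second at the start of the longest TAD that was merged, and the others at the start and end of a TAD that was divided into 3.
Kept TAD, end, chr18:39526795-39526824, plus strand: aacaataccCCAAAAGGGGGCtaaagaaag
Merged TAD, start, chr2:143810508-143810537, plus strand: ttaaagcagCCAGGAGGGGGCtataccctg
Divided TAD, start, chr13:110777776-110777805, plus strand: cattgaaggCCAGCAGGGGGCtggtgcagt
Divided TAD, end, chr13:114058573-114058602, minus strand: gggtcaggcCCAGAAGGGGGCtcaggaacg
Such a match is a resemblance in sequence and not a measured binding site.

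Within autosomes 13273396 contacts were recovered from the control map. The map of the CTCF siRNA cells gave 55010567, which is 4.14 times as many, so the control values are the less precise. In both maps 356 bin positions were empty on every autosome, namely all positions up to 9.4 Mb and 121 others, of which 119 lay between 9.44 and 15.36 Mb. These positions touched 48 of the long TADs and covered 25 of them wholly. A pair of usable bins was left in 347 long TADs, and 317 had at least 90% usable bins. The control list thus holds TADs at positions that are empty in the maps, and fates are given for all 373. Whether the gaps affected the TAD calls was not tested.

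Long TADs were poor in genes. They held 2263 starts of protein-coding genes, which is 2.88 genes per Mb (Poisson 95% interval 2.76 to 3.0). All autosomal control TADs held 6.75 genes per Mb (6.65 to 6.85), and those of 800 kb to under 1.5 Mb held 6.82 (6.65 to 6.98). A long TAD had a median of 3 genes (3 to 4) against 4 over all control TADs, although the median length of all control TADs was only 720 kb. No gene started in 25 of the 373 long TADs (6.70%, Wilson 95% interval 4.58 to 9.71%). This share was close to the 5.83% (5.01 to 6.76%) of all control TADs and the 6.73% (5.26 to 8.56%) of those of 800 kb to under 1.5 Mb. Median GC content was 38.1% (37.6 to 38.4%) in long TADs and 41.1% (40.9 to 41.3%) in all control TADs. Chromosome 13 had the highest share of long TADs, 21 of 70, and chromosome 17 the lowest, 5 of 96.

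Genes of several chosen lists were counted in long TADs. Of all autosomal protein-coding genes, 11.8% (11.3 to 12.2%) started in a long TAD, and these TADs covered 27.3% of the autosomes. Among neuronal adhesion and guidance genes 33 of 51 did so (64.7%, 51.0 to 76.4%). Examples are PTPRD, a receptor phosphatase of synapse formation, CNTN5, a contactin of the neuronal surface, and the teneurin TENM2. Among genes of synaptic receptors and channels the count was 14 of 37 (37.8%, 24.1 to 53.9%), among them the glutamate receptor genes GRIK2 and GRM7. Developmental transcription factor genes gave 28 of 68 (41.2%, 30.3 to 53.0%), among them ZFHX3, FOXP1, FOXP2 and MEIS2. Housekeeping genes gave 4 of 37 (10.8%, 4.29 to 24.7%): YWHAZ, EEF1A1, GUSB and RPL13A. The lists were chosen with results of these data known, and the counts are a description.

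Genes of the prostate were present as well. Of 38 prostate luminal and androgen-regulated genes, 11 started in a long TAD (28.9%, 17.0 to 44.8%). ABCC4, a drug and prostaglandin exporter, TMEFF2, a transmembrane protein of prostate, and GRHL2, an epithelial transcription factor, were the longest of these. The others included FOLH1, which encodes prostate-specific membrane antigen, the luminal keratin genes KRT8 and KRT18, STEAP4, a metalloreductase, and FOXA1, a pioneer factor of the androgen receptor. The prostate-specific antigen gene KLK3 lay with KLK2 and KLK4 in a long TAD of 1680 kb at chr19:50620001-52300000, which held 62 gene starts. Of 28 tumour suppressor and oncogene loci of prostate cancer 5 started in a long TAD (17.9%, 7.88 to 35.6%).

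Gene length followed the same pattern. Of 67 protein-coding genes that span 1 Mb or more, 33 started in a long TAD (49.3%, 37.7 to 60.9%). Of the 8012 genes under 20 kb, 823 did so (10.3%, 9.63 to 11%). A long gene did not always fit in its TAD. PTPRD spans 2298.8 kb, and its start fell in a TAD of 2720 kb at chr9:9940001-12660000 whose edge cut the gene. CNTN5 starts at chr11:98891679 in a TAD that ended at 98900000. GRM7 starts at chr3:6811688 in a TAD that ended at 6820000. Most of CNTN5, GRM7, TENM2 and TMEFF2 lay outside the long TAD in which the gene starts.

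The fate of each control TAD was read from the CTCF siRNA list with edges compared at 40 kb, in the order given here. A TAD was kept if 1 CTCF siRNA TAD had both its edges, merged if it lay in a CTCF siRNA TAD with at least 1 other control TAD, extended if it lay alone in a larger one, subdivided if it held 2 or more CTCF siRNA TADs, and trimmed if it held 1. Of the long TADs, 56 were kept (15%, Wilson 95% interval 11.7 to 19%), where 20.6% of all autosomal control TADs were. Merging took 82 of them (22%, 18.1 to 26.5%), against 31.3% of all. Extension took 30 (8.04%, 5.69 to 11.2%), against 18.0% of all. Subdivision took 40 (10.7%, 7.97 to 14.3%), against 5.25% of all. Trimming was the most frequent fate, with 102 (27.3%, 23.1 to 32.1%), against 13.4% of all. A further 55 (14.7%, 11.5 to 18.7%) overlapped CTCF siRNA TADs otherwise, against 9.99% of all, and 8 (2.14%, 1.09 to 4.17%) were not covered by any, against 1.56% of all.

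Control TADs of 800 kb to under 1.5 Mb lay between the long TADs and the full list in several of these shares. Among these 892 TADs 18.6% (16.2 to 21.3%) were kept, 26.6% (23.8 to 29.6%) merged and 8.74% (7.06 to 10.8%) subdivided. Their shares of kept, merged and subdivided TADs had intervals that overlapped those of the long TADs, whereas trimming (16.9%, 14.6 to 19.5%) and extension (15.4%, 13.1 to 17.9%) did not. By the rules, a longer TAD can more easily hold other TADs and less easily lie within another. The shares of the fates therefore depend partly on length by definition, and the size of that part was not tested.

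**Figure D1:**
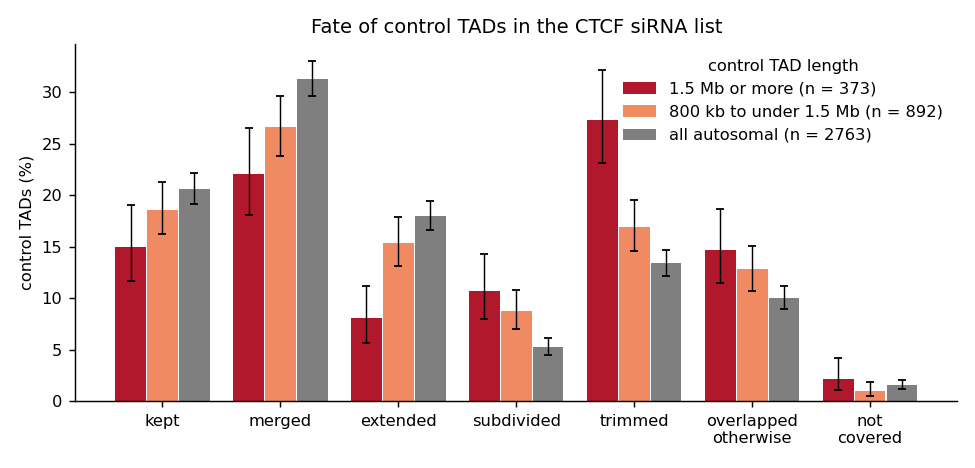
Share of control TADs (vertical axis, %) with each fate in the CTCF siRNA list (horizontal axis), for TADs of 1.5 Mb or more, of 800 kb to under 1.5 Mb and for all autosomal TADs; lines are Wilson 95% intervals. Trimming was the most frequent fate of long TADs at 27.3%, while merging led among all TADs at 31.3%.

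The trimmed TADs kept a median of 66.4% of their length (60.3 to 76.3%) in the CTCF siRNA TAD inside them, with a range of 17.3 to 96.3%. The CTCF siRNA TAD around a merged long TAD had a median length of 3300 kb (3040 to 3920 kb) and reached 13800 kb. Among the subdivided long TADs 32 held 2 CTCF siRNA TADs, 7 held 3 and 1 held 4. CTCF siRNA TADs covered 687.1 of the 786.8 Mb in long TADs.

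The lists were also exchanged. The CTCF siRNA list had 461 TADs of 1.5 Mb or more among 2308 on autosomes (20.0%, 18.4 to 21.7%), and these covered 45.0% of its length. Of them 226 held 2 or more control TADs (49.0%, 44.5 to 53.6%), against 16.5% of all CTCF siRNA TADs. A control TAD with the same edges was found for 55 (11.9%, 9.28 to 15.2%), against 24.7% of all. A further 12 (2.6%, 1.5 to 4.49%) lay in a control TAD that held another, against 13.3% of all. Subdivision was thus more frequent from the CTCF siRNA side than from the control side both for long TADs, 49.0% against 10.7%, and for the whole lists, 16.5% against 5.25%. The maps differed in depth, and the part of depth in the TAD calls was not tested.

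Edges were also counted singly. A kept TAD needs both of its edges, so by definition this share cannot be below that of kept TADs. Of the 746 edges of long TADs, 388 lay within 40 kb of a CTCF siRNA edge (52.0%, 48.4 to 55.6%), and of all 5526 control edges 2938 did (53.2%, 51.8 to 54.5%). An edge shared by adjoining TADs was counted for each of them, so these intervals are too narrow. Both edges were found for 101 long TADs (27.1%), 1 edge for 186 (49.9%) and neither for 86 (23.1%). The shares over all control TADs were close to these, at 27.4%, 51.5% and 21.1%.

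Gene content differed between the fates. Merged long TADs held 1.63 genes per Mb (1.44 to 1.84), those that overlapped otherwise 1.77 (1.54 to 2.02), trimmed ones 3.20 (2.96 to 3.44) and kept ones 3.66 (3.34 to 4.01). The subdivided ones held 5.86 (5.35 to 6.40), with 84 of their 488 genes in 1 TAD on chromosome 19, against 6.75 (6.65 to 6.85) in all control TADs. Of the 461 genes in kept ones, 62 lay in 1 TAD on chromosome 19 and 61 in 1 TAD on chromosome 17. The Poisson intervals take no account of such clustering, so the order of kept and trimmed ones is not settled. Median GC content went the same way, from 36.7% (36.4 to 37.3%) in merged to 41.4% (40.4 to 42.7%) in subdivided long TADs. Since gene density and GC content move together, their parts in the fates cannot be told apart here.

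Individual TADs show the range of fates. The longest TAD of all, chr4:57860001-63580000 (5720 kb), was trimmed to 3200 kb, and the next CTCF siRNA TAD, of 4400 kb, covered the rest of it and ran beyond its end. It holds ADGRL3, which encodes a latrophilin adhesion receptor. The next longest, chr18:34420001-39540000 (5120 kb), was kept with both edges in place and holds CELF4, an RNA-binding regulator of splicing, and PIK3C3, the lipid kinase of autophagy. The TAD of 4680 kb at chr19:19900001-24580000, with 38 gene starts including the zinc finger repressor genes ZNF91, ZNF675 and ZNF254, was also kept. Its end had no insulation value (defined below) in either map, so insulation at that edge could not be compared. Its start had -0.39 in control and -0.71 in CTCF siRNA.

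The longest merged TAD, chr2:143780001-147460000 (3680 kb), holds ZEB2, a repressor of epithelial genes, and lay in a CTCF siRNA TAD of 6640 kb. The TAD with the most CTCF siRNA TADs inside was also the one with the most genes, chr19:49100001-50620000 (1520 kb), with 84 gene starts. It was cut into 4 TADs of 440, 440, 440 and 200 kb and holds RPL13A, a ribosomal protein gene, and TRPM4, a cation channel gene. Its neighbour with the KLK genes, next in gene number among TADs with at least 90% usable bins, was kept. At the other end of the scale, the TADs at chr4:33060001-36180000 and chr4:27620001-30700000 held no gene start and overlapped CTCF siRNA TADs that ended elsewhere.

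Contacts inside each TAD were compared with those expected from the chromosome and the distance between the bins. A long TAD held 1.05 times the expected contacts in control (median, 95% interval 1.03 to 1.08, n = 347) and 0.726 times after CTCF siRNA (0.682 to 0.772). The median log2 change was -0.56 (-0.62 to -0.47), against -0.070 (-0.11 to -0.039) over all 2544 control TADs with a value and -0.14 (-0.21 to -0.069) in those of 800 kb to under 1.5 Mb. Contacts were higher after CTCF siRNA in 77 of the 347 (22.2%, 18.1 to 26.9%), against 45.3% of all TADs. They were lower by at least 0.32 on the log2 scale, that is at most 0.8 times the control, in 217 (62.5%, 57.3 to 67.5%), against 36.6% of all, and higher by at least 0.32 in 33 (9.51%, 6.85 to 13.0%), against 24.4% of all.

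This difference went with the base composition of the TADs. The median number of contacts per bin in a long TAD, relative to its chromosome, was 1.01 in control and 0.848 in the CTCF siRNA map. In long TADs of under 37% GC these values were 0.997 and 0.695, and in those of 40% GC or more 0.981 and 1.2. Contacts per bin thus differed between the maps by GC content, and whether this came from the libraries or the chromatin was not tested. After iterative balancing, which gives every bin the same total, the median log2 change in long TADs was -0.061 (-0.068 to -0.053), and that over all TADs was -0.087 (-0.090 to -0.083). No long TAD was then past 0.32 on the log2 scale in either direction: 0 of 347 allows a share of up to 0.865% at a limit of 3 counts, and the Wilson upper bound is 1.1%. Of all TADs 0.118% were higher and 2.28% lower by that much, and of the 825 TADs of 800 kb to under 1.5 Mb 0.24% and 0.12%. Contacts were higher in 45 of the 347 (13.0%, 9.84 to 16.9%), against 13.8% of all. Balanced long TADs held 1.07 times the expected contacts in control and 1.02 times in CTCF siRNA (medians). Equal bin totals themselves limit how far the sum over a long TAD can move. These counts therefore cannot show that its contacts were unchanged, and pairs over 1000 kb apart had a median balanced change of -0.46.

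Before balancing, long TADs lay closer to all TADs within a band of GC content than they did without the bands. Under 37% GC, the log2 change was -0.90 (-0.97 to -0.84, n = 134) in long TADs and -0.95 (-0.99 to -0.91, n = 376) in all. From 37 to 40% GC it was -0.50 (-0.58 to -0.42, n = 117) and -0.48 (-0.50 to -0.45, n = 716). At 40% GC or more it was 0.15 (0.063 to 0.24, n = 96) and 0.25 (0.22 to 0.27, n = 1452). After balancing the values in the same bands were -0.084 (-0.089 to -0.077), -0.061 (-0.074 to -0.047) and -0.023 (-0.038 to -0.012) in long TADs. Over all TADs they were -0.11 (-0.12 to -0.10), -0.10 (-0.11 to -0.097) and -0.069 (-0.075 to -0.064), lower than in long TADs in each band. The part of balancing itself in this contrast between lengths was not tested. Across the 347 long TADs, which share 1 pair of maps, the change had a Pearson r of 0.83 with GC content before balancing and 0.41 after it.

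**Figure D2:**
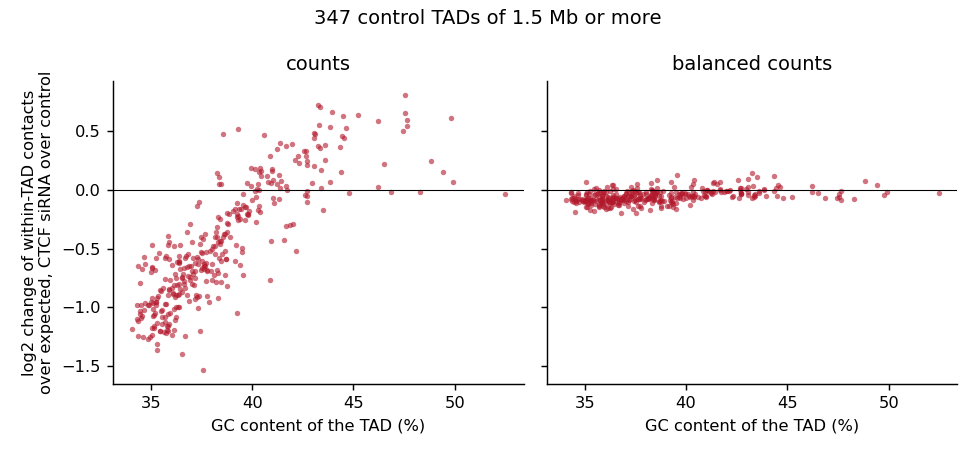
Log2 change of within-TAD contacts over expected, CTCF siRNA over control (vertical axis), against GC content (horizontal axis, %), 1 point for each of 347 long TADs, from counts (left) and balanced counts (right). The points climb with GC content on the left, from a median of -0.90 under 37% GC to 0.15 at 40% or more, and lie close to 0 on the right.

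The TADs with the greatest unbalanced changes had small balanced ones. Among TADs with at least 90% usable bins the greatest loss was at chr17:51220001-52980000, around the kinesin gene KIF2B, with 4710 contacts in control for 5141 expected (0.916) and 10306 in CTCF siRNA for 29667 expected (0.347). Its log2 change was -1.40 (counting interval -1.45 to -1.35) and -0.068 after balancing. The TADs at chr10:54540001-57180000, which overlaps PCDH15, the gene of a protocadherin of hair cell tip links, and at chr10:57420001-59900000, with the kinetochore gene ZWINT, had changes of -1.36 and -1.31, or -0.088 and -0.093 after balancing. The greatest gain was at chr13:110780001-114060000, with the collagen IV genes COL4A1 and COL4A2, where 4515 contacts for 5026 expected (0.898) became 29201 for 18595 (1.57). This was a change of 0.81 (0.76 to 0.85), or -0.038 after balancing. Its GC content was 47.5%, and those of the 3 TADs with the greatest losses were 36.5%, 35.3% and 35.3%.

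Distance within the TAD mattered. After balancing, pairs of bins up to 400 kb apart in long TADs had a median log2 change of 0.0045 (-0.0017 to 0.011), pairs over 400 to 1000 kb apart -0.19 (-0.21 to -0.17) and pairs over 1000 kb apart -0.46 (-0.50 to -0.42, n = 340). Before balancing the values were -0.52, -0.63 and -0.79. Other TADs had such values at long distance too: TADs of 800 kb to under 1.5 Mb had -0.58 (-0.65 to -0.50, n = 331) over 1000 kb, and -0.28 (-0.31 to -0.26) from 400 to 1000 kb. In control, pairs over 1000 kb apart inside a long TAD had 2.12 times the expected contacts (1.95 to 2.25), and in CTCF siRNA 1.1 times (1.05 to 1.19), before balancing. The TADs were called on the control map, which favours enrichment in control inside them.

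**Figure D3:**
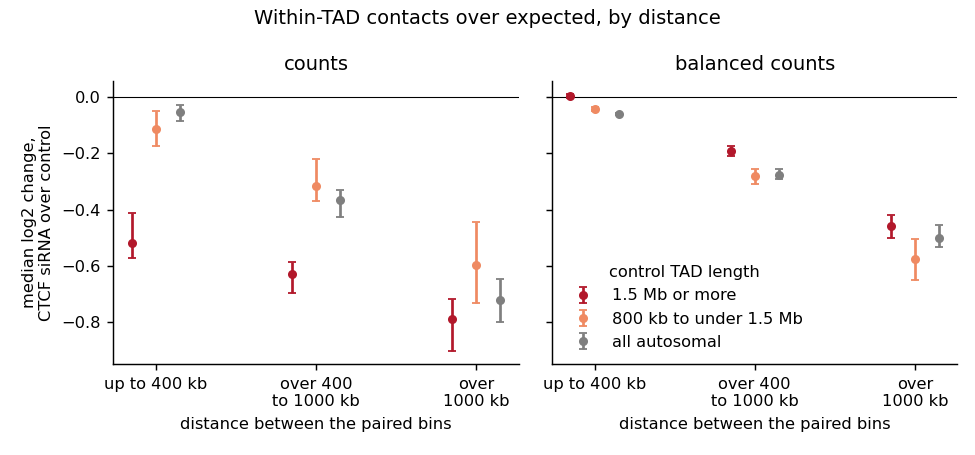
Median log2 change of within-TAD contacts over expected (vertical axis) by distance between the paired bins (horizontal axis), for 3 length classes of control TADs, from counts (left) and balanced counts (right); lines are 95% intervals of the median. In balanced counts the long TADs go from 0.0045 at up to 400 kb to -0.46 over 1000 kb.

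The change over 1000 kb was also read by fate. The fates come from the list called on the CTCF siRNA map, which also enters the change, so the groups are not independent of it. Over 1000 kb the balanced log2 change was -0.36 (-0.50 to -0.24, n = 51) in kept, -0.36 (-0.43 to -0.17, n = 34) in subdivided, -0.46 (-0.53 to -0.35, n = 89) in trimmed and -0.53 (-0.62 to -0.43, n = 79) in merged long TADs. All these intervals overlapped one another. Before balancing the change was -0.59 (-0.78 to -0.29) in kept, -0.081 (-0.31 to 0.24) in subdivided, -0.78 (-0.94 to -0.61) in trimmed and -1.14 (-1.23 to -0.89) in merged ones. Here the merged lay apart from the kept and the subdivided, as did the trimmed from the subdivided. The fates also differed in GC content, with which the unbalanced change went, and the part of GC content in these gaps was not tested. Over whole TADs the balanced change was -0.023 (-0.044 to -0.014) in subdivided and -0.028 (-0.061 to -0.0097) in kept ones. It was -0.061 (-0.076 to -0.046) in trimmed and -0.075 (-0.085 to -0.061) in merged ones. The intervals of the trimmed and the merged lay apart from that of the subdivided, for the trimmed only narrowly. Up to 400 kb it was 0.031 (0.011 to 0.038) in kept and -0.0047 (-0.017 to 0.0078) in merged ones.

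The longest TAD shows the pattern as a map. Its start had an insulation value of -2.23 in control and -1.98 in CTCF siRNA, and its end -0.77 and -0.20. It held 20936 contacts in control for 15672 expected (1.34) and 44712 in CTCF siRNA for 46329 expected (0.965). The log2 change was -0.47 (-0.49 to -0.45), or -0.076 after balancing.

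**Figure D4:**
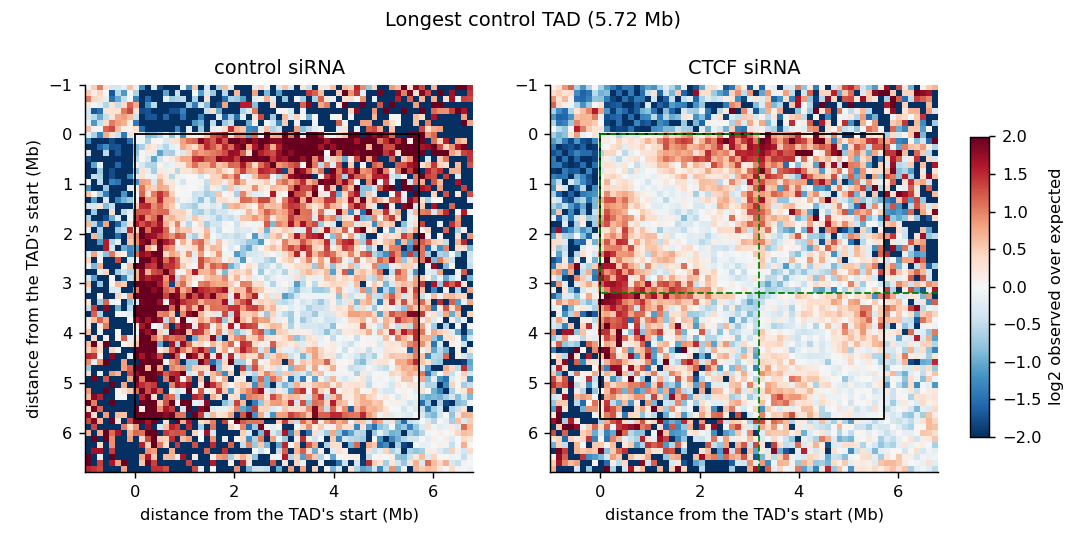
Balanced contacts over expected in and around the longest control TAD, 5720 kb long, in control (left) and CTCF siRNA (right), in blocks of 120 kb; both axes give the distance from its start in Mb, colour is log2 of observed over expected limited to -2 and 2, the black frame is the control TAD and dashed green frames are CTCF siRNA TADs. The red corner of contacts between the ends of the TAD is deep in control and paler in CTCF siRNA, where the first 3200 kb form a TAD of their own.

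Edges of long TADs insulated less after CTCF siRNA. The insulation value used here is the log2 of observed over expected contacts between flanks of 400 kb, relative to those within the flanks, so a lower value means a stronger edge. At 630 edges of long TADs with a value the median was -1.05 (-1.09 to -1.01) in control and -0.36 (-0.42 to -0.32) in CTCF siRNA. The median change was 0.59 (0.55 to 0.64), against 0.49 (0.48 to 0.51) at the 4835 edges of all control TADs and 0.56 (0.53 to 0.59) at those of 800 kb to under 1.5 Mb. The value was higher at 579 of the 630 (91.9%, 89.5 to 93.8%), against 88.3% of all edges. Edges shared by adjoining TADs were counted for each of them, which makes the intervals at edges too narrow. Edges were chosen on the control map, where noise can make them low, so part of the change can follow from the choice.

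Edges that reappeared in the CTCF siRNA list had been the stronger ones. Their median value was -1.18 (-1.24 to -1.10, n = 310) in control and -0.66 (-0.71 to -0.61) in CTCF siRNA. At edges not found again it was -0.90 (-1.01 to -0.83, n = 320) and -0.13 (-0.19 to -0.076). The edges were split by the list called on the CTCF siRNA map, which favours lower CTCF siRNA values at those found again. The kept TAD on chromosome 18 went from -1.60 to -0.66 at its start and from -2.35 to -0.95 at its end. The merged TAD on chromosome 2 went from -1.40 to -0.092 at the end where it joined its neighbour, and from -1.53 to -0.55 at the start.

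**Figure D5:**
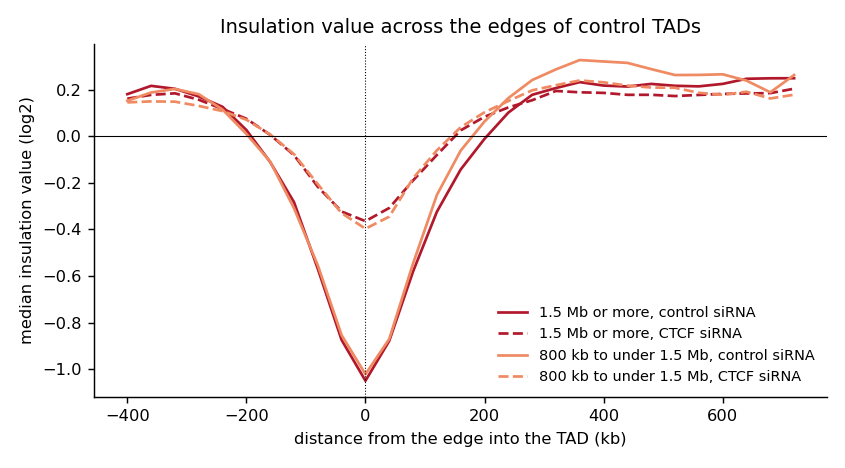
Median insulation value (vertical axis, log2) against distance from the edge into the TAD (horizontal axis, kb; negative values lie outside), for control TADs of 1.5 Mb or more and of 800 kb to under 1.5 Mb in control (solid) and CTCF siRNA (dashed). Both classes have a trough at the edge of about -1.0 in control and -0.4 in CTCF siRNA, and values above 0 from 240 kb into the TAD.

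The insulation value also had lows inside long TADs. A minimum was a local low of the insulation value with a prominence of at least 0.3, at least 200 kb from either edge. In control 706 minima lay in 570.6 Mb of interior, or 1.24 per Mb (Poisson 95% interval 1.15 to 1.33), against 1.07 (0.98 to 1.16) in TADs of 800 kb to under 1.5 Mb. In CTCF siRNA, thinned to the control's number of contacts, there were 620.2 on average over 5 draws (607 to 634), or 1.09 per Mb (1.0 to 1.18). At full depth the same map had 524, so thinning alone raised the number. The part of counting noise in the control minima was not tested. The difference at matched depth was -0.15 per Mb, and it turned to 0.13 with flanks of 200 kb, so it has no settled direction. With flanks of 400 kb, 175 of the 373 long TADs had fewer minima after CTCF siRNA (46.9%, 41.9 to 52%) and 98 had more (26.3%, 22.1 to 31%). Over all control TADs, many of them too short to hold a minimum, the shares were 17.4% and 15.2%, and in TADs of 800 kb to under 1.5 Mb 27.5% and 23.8%. No minimum was found in control in 48 long TADs, but in only 3 of the 317 with at least 90% usable bins. The longest TAD had 8 and the kept TAD on chromosome 18 had 7.

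Minima partly coincided. Of the 706 control minima 255 (36.1%, 32.7 to 39.7%) had a CTCF siRNA minimum within 1 bin in the first thinned map, where 13.3% of all interior bins did. The median value at the 706 control minima of long TADs was -0.32 (-0.36 to -0.28) in control and -0.01 (-0.046 to 0.013) in CTCF siRNA. Over all interior bins of long TADs it was 0.20 and 0.17. Minima picked as lows in 1 map can lie higher in another through noise alone.

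Part of the new edges inside long TADs fell on lows that the control already had, as did part of those in shorter TADs. In the interiors lay 200 bins with a CTCF siRNA edge, and 83 of them (41.5%, 34.9 to 48.4%) had a control minimum within 1 bin, where 14.8% of all interior bins did. The median insulation value at the 200 bins in long TADs was -0.24 (-0.30 to -0.16) in control and -0.30 (-0.36 to -0.23) in CTCF siRNA.

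Matches to the CTCF core were sparse in long TADs. There were 926, or 1.20 per Mb (1.1 to 1.28), against 1.85 (1.80 to 1.90) in all control TADs and 1.92 (1.83 to 2.01) in those of 800 kb to under 1.5 Mb. The motif is GC-rich and the long TADs are AT-rich. Among long TADs the density was 0.943 per Mb (0.799 to 1.1) in merged, 1.45 (1.24 to 1.68) in kept and 1.82 (1.54 to 2.14) in subdivided ones. Within the bin of an edge and 1 bin on either side, a window of 120 kb, a match was present at 121 of 746 edges (16.2%, 13.7 to 19%). It was present in 12.0% (11.5 to 12.5%) of windows of this length inside long TADs and in 18.5% over the autosomes.

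Among edges of long TADs, those found again in CTCF siRNA and those not found had shares with overlapping intervals. The exact core had only 5323 matches on the autosomes, and most edges had none, so this comparison has little power. A match was present at 66 of 388 found again (17.0%, 13.6 to 21.1%) and at 55 of 358 not found (15.4%, 12.0 to 19.5%). Among all control edges the shares were 28.3% (26.7 to 29.9%) and 22.8% (21.3 to 24.5%), whose intervals lay apart. Shared edges were counted for each adjoining TAD here too, so these intervals are too narrow. The paper measured CTCF binding by ChIP-seq and reports that sites still bound after depletion were enriched at the boundaries present after knockdown. Of the 142 matches at edges of long TADs 66 pointed into the TAD (46.5%, 38.5 to 54.7%). The window took matches from both sides of the edge, and a match that points out of a long TAD can point into an adjoining TAD. This share therefore cannot show whether the matches had a preferred orientation. At the printed sites, the matches at the start and end of the divided TAD and at the start of the merged TAD pointed into their TADs, and the match at the end of the kept TAD pointed out of it.

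The threshold of 1.5 Mb split a continuous distribution, as lengths come in steps of 40 kb. Just inside it were 27 TADs of 1520 kb, and just outside 27 TADs 40 kb shorter. They held 6.36 (5.61 to 7.18) and 5.11 (4.43 to 5.86) genes per Mb, and, without the TAD of most genes in each, 4.48 and 3.9, a comparison chosen after seeing the data. Their median GC contents were 38.5% and 38.9%. Their median log2 changes after balancing were -0.084 (-0.12 to -0.053, n = 26) and -0.074 (-0.11 to -0.050, n = 27). Before balancing they were -0.61 (-0.78 to -0.20) and -0.18 (-0.51 to 0.15). TADs of 2 Mb or more, 172 in number, held 1.76 genes per Mb.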

How the data were processed

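Hi-C was analysed in LNCaP cells transfected with control siRNA (2 libraries) or CTCF siRNA (4 libraries), grouped by the siRNA in the labels. According to the study's methods BglII was the restriction enzyme, and the authors aligned read pairs to hg19 with HiCUP and Bowtie, pooled each condition's libraries into bins of 40 kb and took TADs from a hidden Markov model of the directionality index. The submitters' processing notes name FastQC 0.11.2, Bowtie 1.1.0, SAMtools 1.2 and Picard 1.121. The deposited contact values are counts multiplied by a factor of each bin, with no scaling for depth. The factors depended on position alone and were the same on every chromosome, from 9.4 to 48.12 Mb. Beyond 48.12 Mb the values were whole, uncorrected counts, and positions up to 9.4 Mb were empty. The deposited TAD lists hold coordinates.

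The comparisons had been planned for raw counts. These were recovered by dividing out the factors, and 100.0% of the tested values in both maps came out whole within 0.0101 plus 0.05%, against 2.47% and 2.76% for random remainders. Bins needed 10% of the chromosome's median contacts in both maps. Expected contacts were means per chromosome and distance. Balancing used 50 rounds. Genes were GENCODE protein-coding genes on GRCh37, placed by their start. The functions were tested on simulated maps. Python 3.11.15, NumPy 2.4.6 and SciPy 1.17.1 were used, and medians carry binomial order-statistic intervals.

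The named TADs were, among those with at least 90% usable bins, the 3 longest, the 3 with the greatest gain and loss of contacts, the 3 with most CTCF siRNA TADs inside, the longest kept and merged, the 2 with most and fewest genes and the 2 with most minima. Genes named in them were list members, then the longest, and a few of these are printed. The members and lists were chosen with earlier results of these data known. Alternatives covered the edge tolerance, length, usable bins, flanks, prominence, depth and correction of the maps.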

Additional observations from a re-analysis of the deposited data

How the results depend on the processing

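No paired analysis was possible because the files hold only 1 pooled map and 1 pooled TAD list for a condition, which also means that no library could be left out. Of 37 alternatives over 8 results, 25 stayed within the spread of the reported value, 11 moved beyond it and 1 reversed. With edges required to coincide exactly, 6.70% of long TADs were kept and 17.7% merged. Gene density was 3.13 per Mb when genes that overlap a TAD were counted, 1.76 in TADs of 2 Mb or more and 3.25 over the length of usable bins. The median log2 change of contacts was -0.65 with expected contacts taken over all autosomes, -0.63 in TADs of 2 Mb or more and -0.061 with balanced counts, where every bin has the same total. The difference in minima was 0.13 per Mb with flanks of 200 kb and -0.32 at full depth. The change at edges was 0.54 with flanks of 800 kb. The looser motif CCANNAGNGGGC gave 4.60 matches per Mb. The causes were otherwise not tested. Values of single TADs and minima are less precise in control, with 13273396 contacts, than in CTCF siRNA, and empty positions left 26 long TADs without contact values.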

Other observations

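Gene families outside the fixed lists were counted after the other values had been seen. Of 398 autosomal olfactory receptor genes, which lie in clusters, 122 started in long TADs (30.7%, Wilson 95% interval 26.3 to 35.3%). Of 503 genes named ZNF, most of them zinc finger transcription factors in clusters, 104 did so (20.7%, 17.4 to 24.4%). Clustered genes can share a TAD, and the number of separate TADs behind these counts was not determined. Among the 33 genes of 1 Mb or more that start in a long TAD, DAB1, a reelin adaptor, and AGBL4, a carboxypeptidase of tubulin, lay in TADs that were kept, WWOX, an oxidoreductase at a fragile site, and PTPRT, a receptor phosphatase, in TADs that were merged, and EYS, a photoreceptor gene, in a TAD that no CTCF siRNA TAD covered. Of the long TADs, 74 of 373 (19.8%, 16.1 to 24.2%) shared an edge with another long TAD.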
